A study of Mus musculus with 9 samples.

Results

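The replication-dependent histone genes are the clustered genes for the H1 linker histones and the H2A, H2B, H3 and H4 core histones, and they were followed here in mouse embryonic stem cells after induced deletion of Zbtb11, a gene for a BTB zinc finger protein. They were chosen by symbol: every row of the count tables whose Ensembl identifier maps to a Hist1h, Hist2h, Hist3h or Hist4h gene, pseudogenes left out, with a mean of at least 1 CPM over the 9 libraries (counts scaled to a common library size). Of 37310 gene rows, 56 carried such a symbol, 53 of them were not annotated as pseudogenes, and 44 passed the limit. The 44 comprised 6 H1, 12 H2A, 10 H2B, 5 H3 and 11 H4 genes, with 40 in the Hist1 cluster on chromosome 13, 3 in the Hist2 cluster on chromosome 3 and 1 in the Hist3 cluster on chromosome 11. The members nearest the limit were Hist1h2an at 9.66 CPM, Hist1h2ba at 12.0 CPM and Hist1h2ad at 13.2 CPM, and the nearest genes below it were Hist3h2a at 0.986 CPM, Hist2h3c2 at 0.725 CPM and Hist2h2be at 0.603 CPM, all scaled by library totals. All 44 passed the expression filter of the test.

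The cells were E14 embryonic stem cells grown without feeders in serum and LIF, and total RNA depleted of ribosomal RNA was sequenced with a strand-specific kit. The KO group was Zbtb11lox/lox Rosa26ERt2-Cre cells given 250 nM 4-hydroxytamoxifen (4OHT), the drug that activates the Cre recombinase, and collected at 72 h. The 4OHT control was Zbtb11WT/WT Rosa26WT cells given the same drug at 250 nM for 72 h, and the EtOH control was the Zbtb11lox/lox Rosa26ERt2-Cre line given the ethanol carrier for 72 h, with 3 libraries in each group. KO and the EtOH control therefore differed in the drug as well as in the induced deletion, and KO and the 4OHT control differed in the line, the lox sites and the Cre transgene, so neither contrast can tell the deletion apart from these. Both contrasts used the same KO libraries. The labels do not say whether the 3 libraries of a group came from separate cultures, so each p-value reflects the spread of those libraries only, and that spread may be technical. Whether the lines are single clones was not stated in the sources used here.

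Replication-dependent histone mRNAs are made in S phase, when new DNA has to be packed into nucleosomes. Unlike other mRNAs of animal cells they end in a conserved stem-loop, not a poly(A) tail: the stem-loop binding protein SLBP and the U7 snRNP direct the cleavage that forms this end, and the mRNAs are degraded quickly when DNA synthesis stops. NPAT, phosphorylated by cyclin E and CDK2, activates the genes in histone locus bodies. In a bulk library, fewer cells in S phase and less histone mRNA per cell cannot be told apart.

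The stem-loop was searched for in the annotated transcripts of the members (GENCODE release for GRCm38), because it is the element by which these mRNAs are processed and degraded. A stem of 6 base pairs with a loop of 4 bases was found in 32 of the 44 members, in 4 of 6 H1, 6 of 12 H2A, 8 of 10 H2B, 4 of 5 H3 and 10 of 11 H4 genes. The letter pattern used for the search does not require the stem to pair, and pairing was checked in the members only. That pattern was in a protein-coding transcript of 1.01% of 21901 genes with such a transcript, members included. A missing match says only that these letters are not in the annotated transcript. The 7 forms found are given as DNA with the stem in capitals and the loop in lower case.
16 H1, H2A, H2B and H3 genes, among them Hist1h1c, Hist1h2ab and Hist1h2be: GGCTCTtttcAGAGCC
Hist1h4c, Hist1h4d, Hist1h4f, Hist1h4h and Hist1h4n: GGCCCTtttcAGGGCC
Hist1h1t, Hist1h2bb, Hist1h2bk, Hist1h3c and Hist1h3e: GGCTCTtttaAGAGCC
Hist1h4i and Hist2h4: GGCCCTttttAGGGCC
Hist1h4b and Hist1h4j: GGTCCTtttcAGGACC
Hist1h4a: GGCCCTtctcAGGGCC
Hist2h2ac: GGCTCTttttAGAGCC
No form was shared between H4 genes and genes of the other classes.

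Promoter windows of RefSeq (GRCm38.p6, 250 bases before to 50 after the start site) were on hand for 41 of the 44 members, 42 windows in all. The 4 short motifs were searched on both strands, with overlaps allowed. TATAAA was in 66.7% of the member windows and 13.6% of all 32851 windows, CCAAT in 83.3% and 37.4%, the octamer ATTTGCAT in 26.2% and 1.74%, and the H1 box letters AAACACA in 19.0% and 7.18%. The octamer lay in 6 of 12 H2A and 5 of 10 H2B windows and in no H1, H3 or H4 window, AAACACA lay in 5 of 6 H1, 2 of 12 H2A and 1 of 10 H2B windows and in no H3 or H4 window, and CCAAT lay in every H1, H2A, H2B and H3 window but in 3 of 10 H4 windows. Some H2A and H2B windows overlap on opposite strands, so the same site was counted in both. The octamer was shared in this way by Hist1h2aa and Hist1h2ba, by Hist1h2ae and Hist1h2bg, and by Hist1h2ah and Hist1h2bk. Hist1h2aa and Hist1h2ba also shared their AAACACA site. The bases before the start site are shown for Hist1h2af, the member lower in KO than in both controls, and for Hist2h2ac and Hist1h1t, the members with the largest fall and rise against the 4OHT control, with motif matches in capitals.
Hist1h2af, plus strand of chr13:23533625-23533874: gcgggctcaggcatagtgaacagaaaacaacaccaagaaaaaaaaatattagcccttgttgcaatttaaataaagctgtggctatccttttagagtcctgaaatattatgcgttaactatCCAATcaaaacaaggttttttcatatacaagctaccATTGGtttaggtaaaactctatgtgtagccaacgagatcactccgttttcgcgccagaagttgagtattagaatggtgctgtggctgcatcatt
Hist2h2ac, minus strand of chr3:96220881-96221130: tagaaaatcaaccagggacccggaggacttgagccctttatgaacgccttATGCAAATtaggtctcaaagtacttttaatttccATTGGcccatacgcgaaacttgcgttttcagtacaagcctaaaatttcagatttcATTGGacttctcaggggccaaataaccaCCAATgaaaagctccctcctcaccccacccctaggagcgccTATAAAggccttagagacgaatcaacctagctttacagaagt
Hist1h1t, plus strand of chr13:23695561-23695810: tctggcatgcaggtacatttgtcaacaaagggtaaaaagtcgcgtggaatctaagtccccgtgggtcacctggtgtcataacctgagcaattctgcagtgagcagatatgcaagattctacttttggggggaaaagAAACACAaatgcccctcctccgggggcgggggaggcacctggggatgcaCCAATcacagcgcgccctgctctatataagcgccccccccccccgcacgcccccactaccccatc
Hist1h2af carried CCAAT matches and none of the other 3 motifs, Hist2h2ac carried matches to TATAAA, to the octamer and to CCAAT, and Hist1h1t carried CCAAT and AAACACA.

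The libraries held 16909139 to 23544893 counts in genes, of which the 44 members took 0.537% to 0.648%. The share of reads that the counting assigned to no gene was 32.7% to 33.8% in KO, 26.7% to 27.5% in the 4OHT control and 26.4% to 28.7% in the EtOH control. Where these reads lie was not examined. Zbtb11 had 370, 386 and 376 CPM in the libraries labelled KO, 364, 378 and 361 CPM in the 4OHT control and 348, 359 and 360 CPM in the EtOH control, and was not called in either contrast of KO (edgeR, log2 fold change 0.09, adjusted p = 0.17 and 0.032 with the replicate number as a block, against the EtOH control, and 0.04, adjusted p = 0.55, against the 4OHT control). A count over the whole gene does not show whether a floxed segment was removed, and the deleted segment was not stated in the sources used here. The 10 embryonic stem cell markers summed to 4291 to 4562 CPM in KO, 4614 to 5261 CPM in the 4OHT control and 4654 to 4882 CPM in the EtOH control. Markers of other cells were low: 6 primitive endoderm markers summed to 18.9 to 22.2 CPM in KO, 9.16 to 11.1 CPM in the 4OHT control and 10.9 to 17.1 CPM in the EtOH control, and 8 fibroblast markers summed to 21.1 to 21.8 CPM in KO, 15.7 to 17.2 CPM in the 4OHT control and 18.1 to 21.2 CPM in the EtOH control. The 6 trophoblast markers summed to 80.8 to 81.8 CPM in KO, 48.5 to 68.6 CPM in the 4OHT control and 80.2 to 86.1 CPM in the EtOH control, and no marker was at 0 in every library. The part of these shifts in the results on histone genes was not tested.

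Many of the genes are near-identical copies. By translation of their annotated transcripts, 27 members encode the same protein as another member: all 11 H4 genes share a protein of 103 residues, 7 H2A genes share a protein of 130, 4 H3 genes a protein of 136, and 3 and 2 H2B genes a protein of 126. At the level of the transcript, 7 members had over 90% of their 50-base words to themselves and 17 had under 50%. How reads that map to several copies were handled was not stated, so the value of a single copy is uncertain where this share is low. The sums over copies are given beside the single genes. The closing row for reads aligned to several places was 0 in all 9 files, so the sums, too, may leave such reads out. Below the CPM limit, Hist2h2aa2 had 0% of its words to itself, Hist1h2bq 2.68%, Hist1h4m 10.2%, Hist2h2aa1 10.6% and Hist1h2br 11.3%. Hist2h3c2 had 36.5%, Hist3h2a 68.5%, Hist2h2ab 79.0% and Hist2h2be 100%. A low level is uncertain, too, where this share is low. Hist1h1e and Hist1h2be also overlap each other on the same strand, and Hist1h4b overlaps a gene on the other strand.

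The summed level of the 44 genes showed no separation between the groups. It was 5399, 6160 and 6328 CPM in KO, 6045, 6048 and 6491 CPM in the 4OHT control, and 5383, 6111 and 6548 CPM in the EtOH control, so that every group overlapped every other. The means were 5962 ± 495 CPM in KO, 6194 ± 257 CPM in the 4OHT control and 6014 ± 589 CPM in the EtOH control (SD, n = 3 each), where CPM is scaled by TMM, which sets the bulk of genes equal between libraries. The log2 ratio of KO to the EtOH control was -0.01, and 0.00, 0.01 and -0.05 within replicate numbers 1, 2 and 3. The log2 ratio of KO to the 4OHT control was -0.06, and -0.16, 0.03 and -0.04 within the 3 numbers. Scaled by library totals alone, which moved the median gene to 0.09 and 0.10 in these contrasts, both ratios of the sum became positive, 0.06 against the EtOH control and 0.03 against the 4OHT control.

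By class, the linker histones H1 summed to 2015, 2270 and 2327 CPM in KO, 2211, 2222 and 2349 CPM in the 4OHT control and 1939, 2233 and 2339 CPM in the EtOH control. The H4 genes, which encode the partner of H3 at the core of the nucleosome, summed to 1527, 1764 and 1872 CPM in KO, 1815, 1775 and 1961 CPM in the 4OHT control and 1612, 1767 and 1994 CPM in the EtOH control. The groups overlapped in both classes. The log2 ratio of the class sums between KO and the EtOH control was 0.02 for H1, 0.02 for H2A, -0.06 for H2B, 0.04 for H3 and -0.06 for H4. Against the 4OHT control it was -0.04 for H1, -0.02 for H2A, -0.07 for H2B, 0.01 for H3 and -0.10 for H4, and the H4 ratio within replicate numbers 1, 2 and 3 was -0.25, -0.01 and -0.07.

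**Figure D1:**
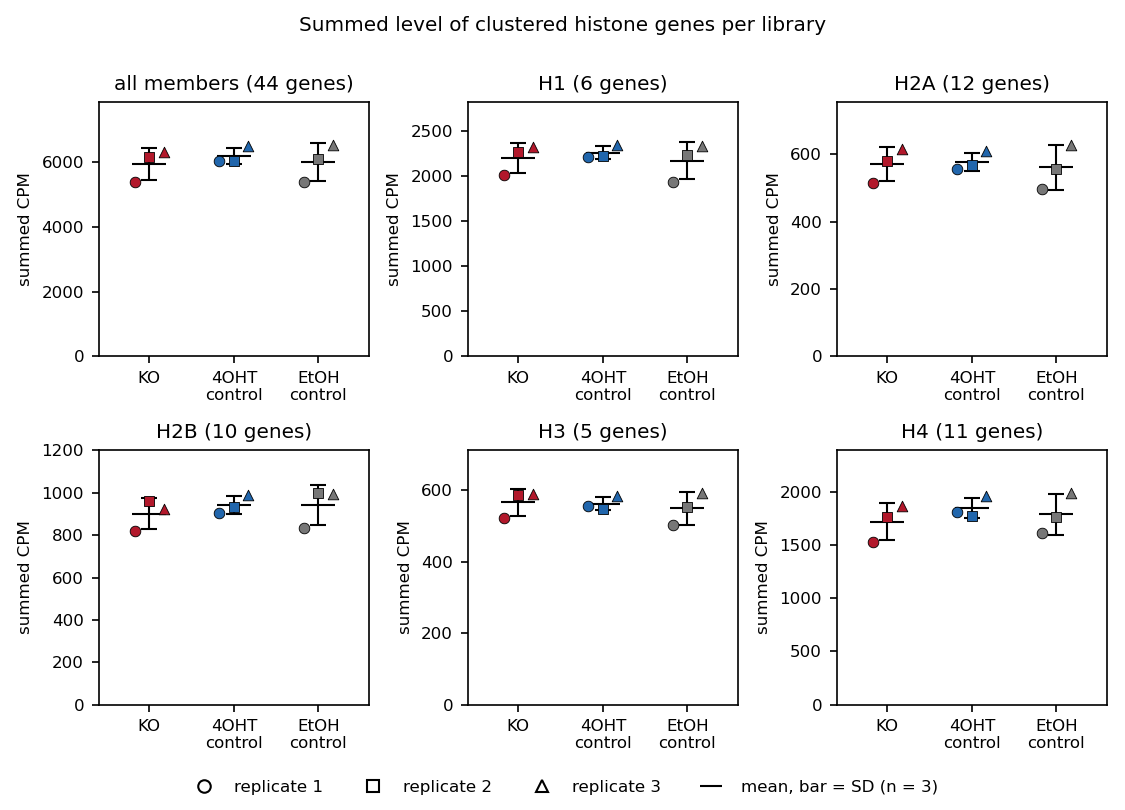
Summed TMM-scaled CPM (y axis, from 0) of all 44 clustered histone genes and of each class in the 9 libraries, by group (x axis), with the mean and SD of 3 libraries. Marker shapes give the replicate number: in the panel of all genes, replicate 1 was the lowest library of each group, at 5399 CPM in KO, 6045 CPM in the 4OHT control and 5383 CPM in the EtOH control.

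Against the EtOH control, 2 of the 44 members fell in KO and none rose. That is 4.55% of the members, where 27.2% of all 16224 genes tested were called (13.0% higher, 14.2% lower; edgeR quasi-likelihood, Benjamini-Hochberg adjusted p below 0.05 over all genes). With the replicate number as a block, 8 members rose and 7 fell, where 20.4% of all genes rose and 22.3% fell (42.8% in all). The median log2 fold change was -0.02 over the members and 0.01 over all genes, and the members ran from -0.31 to 0.57. For 38 of the 44 the fold change lay within 0.25 of 0 on the log2 scale, and for 38 the whole 95% interval lay within 0.5. The standard error was 0.09 at the median of the members and 0.11 at the median of all genes. At an unadjusted p under 0.05, 10 of the 44 members and 6336 of all 16224 genes passed. The CPM of KO and EtOH libraries did not overlap in 2 members, Hist1h2af and Hist1h2ba, which is 4.55% of the members against 41.9% of all genes (21.3% higher, 20.5% lower).

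Among the core histone H2A genes, Hist1h2af (ENSMUSG00000061991.2) had 50.9, 61.3 and 56.3 CPM in KO, 69.4, 75.0 and 73.0 CPM in the 4OHT control and 62.8, 70.9 and 75.1 CPM in the EtOH control. Every KO library was below every library of both controls. The log2 fold change was -0.31 (SE 0.08, adjusted p = 0.0067) against the EtOH control and -0.37 (SE 0.08, adjusted p = 0.0012) against the 4OHT control. The call held in all 16 alternatives in each contrast, with adjusted p up to 0.038 and 0.0087. Of its 50-base words 20.3% were found in no other gene, and 79.7% were shared with Hist1h2ad, which had 13.2, 13.1 and 13.4 CPM in KO and 12.2, 13.2 and 15.1 CPM in the EtOH control (log2 fold change -0.02, adjusted p = 0.90).

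The other fall against the EtOH control was Hist1h2be (ENSMUSG00000047246.5), an H2B gene, with 108, 122 and 112 CPM in KO, 122, 130 and 128 CPM in the 4OHT control and 116, 137 and 139 CPM in the EtOH control. KO replicate 2 lay above EtOH control replicate 1, so the groups overlapped. The log2 fold change was -0.20 (SE 0.07, adjusted p = 0.046), and the call was lost in 8 of 16 alternatives: with library totals (adjusted p = 0.17), with the filter at a mean CPM of 1 (0.052), with the 2 groups alone (0.056), and without EtOH control replicate 2 (0.17), EtOH control replicate 3 (0.17), KO replicate 1 (0.15), KO replicate 3 (0.100) or 4OHT control replicate 2 (0.0504). Hist1h2bc and Hist1h2bg encode the same H2B protein and were at -0.06 and -0.03 on the log2 scale, and the 3 genes summed had a log2 fold change of -0.09 (SE 0.07, adjusted p = 0.37).

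Other members were called with the replicate block and not without it. Hist2h4, an H4 gene, had 90.4, 112 and 106 CPM in KO and 112, 127 and 143 CPM in the EtOH control, with a log2 fold change of -0.31 (SE 0.11, adjusted p = 0.052, and 2.99e-05 with the block). KO was below the EtOH control within each replicate number, while KO replicate 2 lay just above EtOH control replicate 1. It was called lower in 8 of 16 alternatives, among them RLE scaling (adjusted p = 0.047), DESeq2 (0.012), no filter (2.91e-05) and the 2 groups alone (0.038). Hist1h2ba, the testis H2B gene and a member of low level, had 12.1, 12.6 and 16.1 CPM in KO and 7.15, 8.62 and 12.0 CPM in the EtOH control, with a log2 fold change of 0.57 (SE 0.21, adjusted p = 0.061, and 6.3e-06 with the block). KO was above the EtOH control within each replicate number and in every pair of libraries. The 4OHT control had 10.6, 12.3 and 16.4 CPM of Hist1h2ba, which overlapped KO. The log2 fold change of KO over the 4OHT control was 0.05, not called.

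Of the 3 members with the highest CPM in each class, Hist1h2af was the only one called against the EtOH control without the block. Hist1h3e was at 0.17 on the log2 scale (SE 0.07, adjusted p = 0.072, and 0.00096 with the block), Hist1h2bb at -0.16 (SE 0.07, adjusted p = 0.080, and 0.0036 with the block), Hist1h3c at -0.13 (SE 0.06, adjusted p = 0.13, and 0.033 with the block) and Hist1h2ak at 0.10 (SE 0.07, adjusted p = 0.33, and 0.034 with the block). The others were not called either way: Hist1h1a was at -0.02, Hist1h1d at -0.00, Hist1h1c at -0.00, Hist1h2ab at -0.01, Hist1h2bg at -0.03, Hist1h2bc at -0.06, Hist2h3b at -0.06, Hist1h4d at -0.07, Hist1h4a at 0.05 and Hist1h4h at -0.04 on the log2 scale. Hist2h2ac, of low level, was at -0.19 (SE 0.09, adjusted p = 0.12, and 0.025 with the block).

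Without the block, leaving out a library gave 1 to 6 calls against the EtOH control: 6 (5 higher, 1 lower) without EtOH control replicate 3, 5 (all lower) without KO replicate 2, 4 without EtOH control replicate 1 (all lower) or 4OHT control replicate 3, 3 without KO replicate 1 (2 higher, 1 lower), and 1 without EtOH control replicate 2 or 4OHT control replicate 2. The share of all genes called in these fits is not given here.

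Against the 4OHT control, 2 members rose and 5 fell, 15.9% of the 44, where 38.9% of all genes were called (19.1% higher, 19.8% lower). The median log2 fold change was -0.05 over the members and 0.02 over all genes, and the members ran from -0.40 to 0.43. An unadjusted p under 0.05 was reached by 10 of the 44 members and 7681 of all 16224 genes. The CPM of the groups did not overlap in 10 members, 2 above and 8 below, which is 22.7% of the members against 48.2% of all genes (24.5% above, 23.7% below). With the replicate block 22 of the 44 members were called, 5 higher and 17 lower. Of all genes, 51.4% were called with it (25.5% higher, 25.9% lower).

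The linker histone gene Hist1h1t (ENSMUSG00000036211.2), the testis H1, had 32.3, 29.7 and 33.1 CPM in KO, 22.0, 22.9 and 25.7 CPM in the 4OHT control and 23.8, 25.5 and 31.7 CPM in the EtOH control. Every KO library was above every 4OHT control library, while KO and the EtOH control overlapped. The log2 fold change against the 4OHT control was 0.43 (SE 0.10, adjusted p = 0.0031), called in all 16 alternatives, and against the EtOH control it was 0.24 (SE 0.10, adjusted p = 0.086, and 0.0036 with the replicate block). All of its 50-base words were its own. Hist1h1d was at -0.16 against the 4OHT control (SE 0.07, adjusted p = 0.073, and 0.00058 with the block). Hist1h1a was at -0.08 (adjusted p = 0.39, and 0.036 with the block), and Hist1h1c was at 0.04, not called either way.

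All 3 members of the Hist2 cluster fell against the 4OHT control, where 19.8% of all genes fell. The grouping was made after the values were seen. Hist2h2ac (ENSMUSG00000068855.3), an H2A gene, had 22.6, 24.2 and 27.3 CPM in KO, 33.7, 31.9 and 32.4 CPM in the 4OHT control and 25.7, 27.5 and 31.3 CPM in the EtOH control. Hist2h4 (ENSMUSG00000091405.1) had 126, 127 and 150 CPM in the 4OHT control, above each of its KO values given before. Hist2h3b (ENSMUSG00000074403.2), an H3 gene, had 63.2, 79.0 and 83.7 CPM in KO, 87.0, 88.5 and 94.4 CPM in the 4OHT control and 70.4, 79.9 and 84.7 CPM in the EtOH control. In all 3 genes each KO library was below each 4OHT control library, and KO overlapped the EtOH control. The log2 fold changes against the 4OHT control were -0.40 (SE 0.09, adjusted p = 0.0016) for Hist2h2ac, -0.38 (SE 0.11, adjusted p = 0.014) for Hist2h4 and -0.26 (SE 0.09, adjusted p = 0.045) for Hist2h3b. The difference of the 4OHT control over the EtOH control was 0.22 for Hist2h2ac, 0.08 for Hist2h4 and 0.20 for Hist2h3b on the log2 scale. It was positive in 31 of the 44 members and in 8240 of all 16224 genes. None of the 3 Hist2 genes was called between the controls without the block. With it Hist2h2ac (adjusted p = 0.0098) and Hist2h3b (0.0011) were called higher in the 4OHT control. The call of Hist2h3b was lost in 8 of 16 alternatives, among them library totals (adjusted p = 0.11) and leaving out KO replicate 1 (0.16), KO replicate 2 (0.065), EtOH control replicate 2 (0.067) or 4OHT control replicates 1 (0.065), 2 (0.090) or 3 (0.14); the calls of Hist2h2ac and Hist2h4 held in all 16. Hist2h4 had 99.0% of its 50-base words to itself, Hist2h2ac 61.4% and Hist2h3b 20.3%.

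The H3 genes moved in different directions. Hist1h3e (ENSMUSG00000069273.2) had 229, 260 and 258 CPM in KO, 212, 209 and 221 CPM in the 4OHT control and 205, 218 and 243 CPM in the EtOH control. Hist1h3c (ENSMUSG00000069310.2) had 122, 131 and 119 CPM in KO, 143, 133 and 142 CPM in the 4OHT control and 127, 135 and 145 CPM in the EtOH control. All KO libraries were above the 4OHT control in Hist1h3e and below it in Hist1h3c. Hist1h3e rose by a log2 fold change of 0.22 (SE 0.07, adjusted p = 0.015) and Hist1h3c fell by 0.17 on the log2 scale (SE 0.06, adjusted p = 0.039). These 2 genes, Hist1h3b and Hist2h3b encode the same H3 protein, and their sum had a log2 fold change of 0.02 (SE 0.06, adjusted p = 0.87) against the 4OHT control and 0.04 (SE 0.06, adjusted p = 0.67) against the EtOH control. The Hist1h3e call was lost without KO replicate 2 (adjusted p = 0.071), KO replicate 3 (0.059) or 4OHT control replicate 2 (0.062). The Hist1h3c call was lost with library totals (0.29) and without EtOH control replicate 2 (0.052), KO replicate 1 (0.11), KO replicate 3 (0.11) or 4OHT control replicates 1 (0.10) or 3 (0.11). Hist1h3e shared 63.2% of its 50-base words with Hist1h3f and had 26.6% to itself, and Hist1h3c had 53.0% to itself.

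Of the H4 genes, 10 of 11 had a negative log2 fold change against the 4OHT control, at a median of -0.15. Only 1 of them, Hist2h4, was called. Of all 16224 genes tested, 7694 were negative in that contrast and 38.9% were called. With the replicate block 8 of the 11 fell and 1, Hist1h4a, rose, where 25.9% of all genes fell and 25.5% rose. Hist1h4d had 395, 439 and 475 CPM in KO, 472, 459 and 495 CPM in the 4OHT control and 424, 456 and 496 CPM in the EtOH control, with a log2 fold change of -0.12 (SE 0.07, adjusted p = 0.17, and 0.0038 with the block). Hist1h4a was at 0.16 (SE 0.10, adjusted p = 0.24, and 0.0036 with the block). Since the H4 genes encode the same protein, their summed counts were also fitted, with a log2 fold change of -0.10 (SE 0.09, adjusted p = 0.37) against the 4OHT control and -0.06 (SE 0.09, adjusted p = 0.65) against the EtOH control. The 7 H2A genes of the shared protein had a summed log2 fold change of 0.03 (SE 0.09, adjusted p = 0.81) and 0.06 (SE 0.09, adjusted p = 0.61) in the same contrasts. With copies summed in this way, Hist1h2af alone was called against the EtOH control, and Hist1h2af, Hist2h2ac and Hist1h1t against the 4OHT control.

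**Figure D2:**
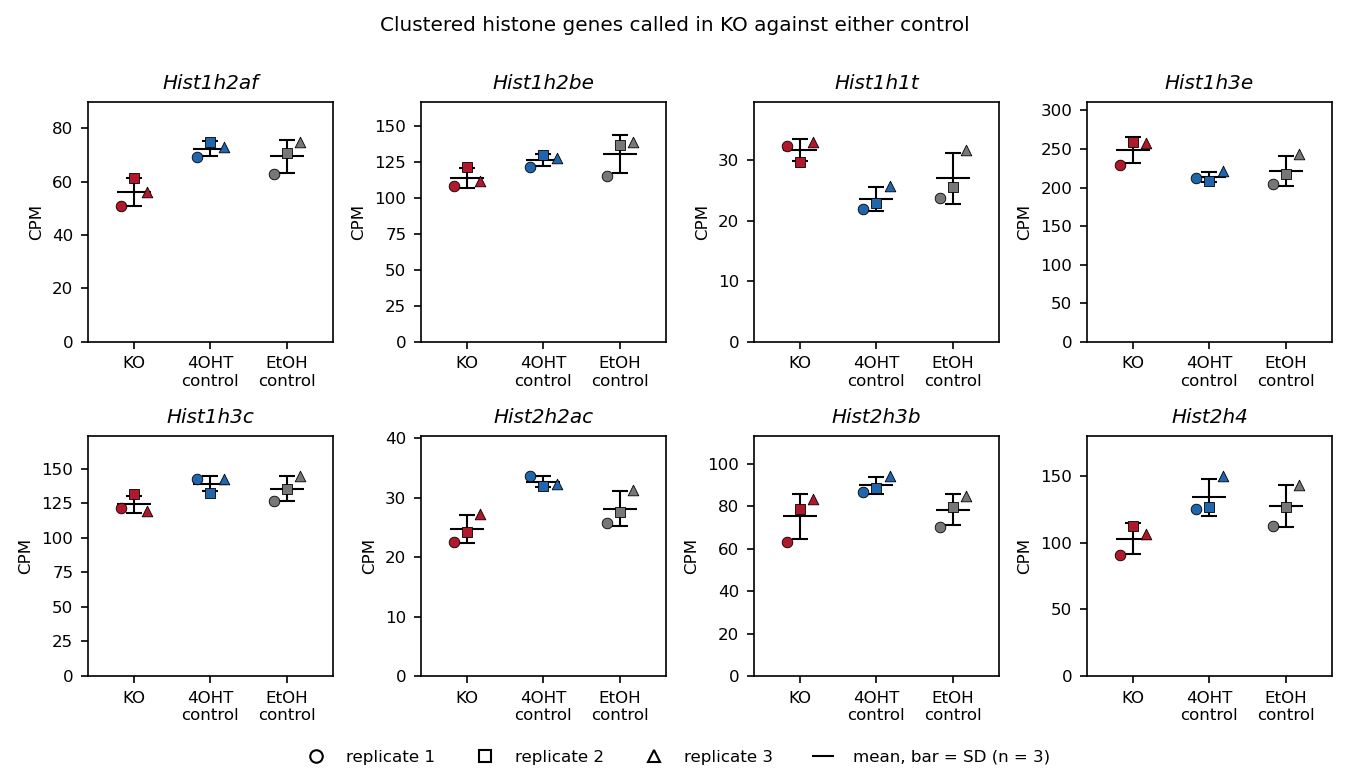
CPM (y axis, from 0) in each of the 9 libraries, by group (x axis), of the 8 clustered histone genes called in KO against either control, with the mean and SD of 3 libraries. Hist1h2af was the gene in which the KO libraries, at 50.9 to 61.3 CPM, lay below both controls.

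**Figure D3:**
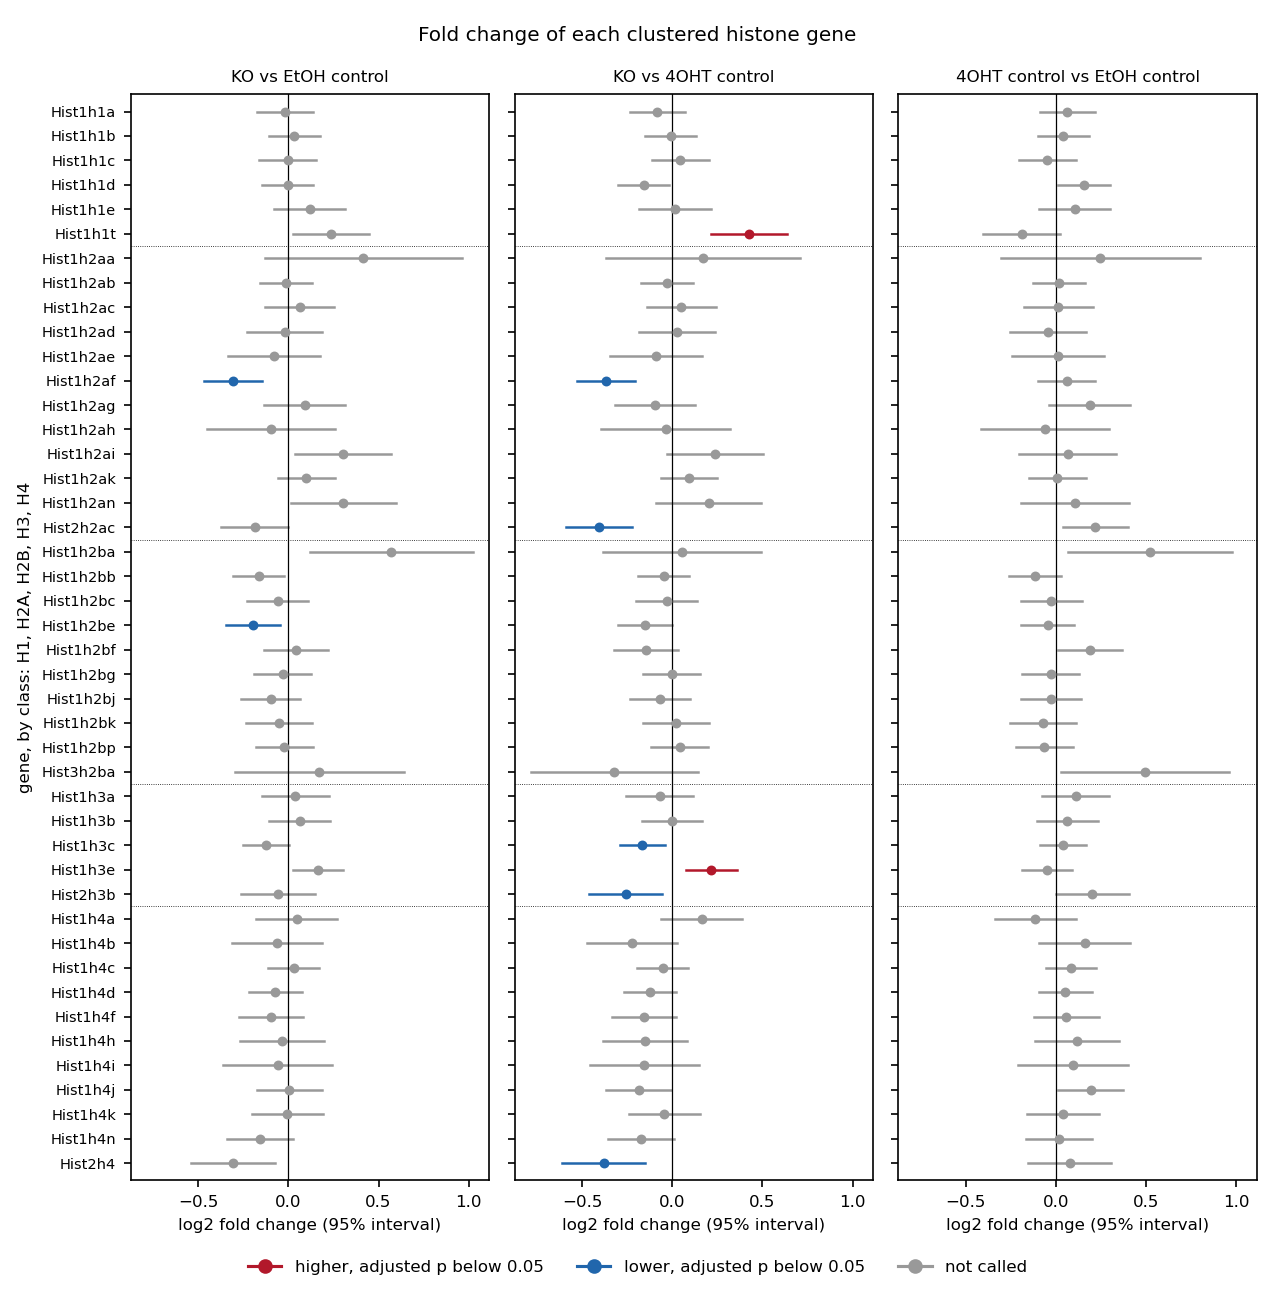
Log2 fold change and 95% interval (x axis) of each of the 44 genes (y axis, by class) in 3 panels, for KO over the EtOH control, for KO over the 4OHT control, and between the controls as 4OHT over EtOH; color marks the called genes. The calls number 2, 7 and 0 in the 3 panels.

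Members with a stem-loop match and those without one both held called genes. Against the 4OHT control 2 rose and 3 fell of the 32 with a match, and none rose and 2 fell of the 12 without, Hist1h2af and Hist2h3b. Of all genes, 19.1% rose and 19.8% fell in that contrast. Against the EtOH control 1 of 32 and 1 of 12 fell, where 14.2% of all genes fell. With the replicate block, 3 rose and 14 fell of the 32, and 2 rose and 3 fell of the 12, against the 4OHT control. Against the EtOH control these counts were 3 and 6, and 5 and 1. A difference between the 2 sets was not tested. This grouping, too, was made after the values were seen.

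Between the 2 controls, no member was called, where 18.4% of all genes were called (edgeR, 9.66% higher, 8.75% lower). At an unadjusted p under 0.05, 6 members and 5014 of all 16224 genes passed. DESeq2 called 1 member higher. The median log2 fold change of the 4OHT control over the EtOH control was 0.05 over the members and 0.00 over all genes, with a range of -0.19 to 0.52. The largest values, named after they were seen, were those of Hist1h2ba at 0.52 (SE 0.21, adjusted p = 0.11, and 6.7e-05 with the block) and Hist3h2ba at 0.49 (SE 0.20, adjusted p = 0.14, and 0.00078 with the block), both H2B genes. The CPM of the controls did not overlap in 4 members, all higher in the 4OHT control, which is 9.09% of the members against 35.1% of all genes (18.1% higher, 17.0% lower). Hist3h2ba had 58.6, 65.3 and 83.8 CPM in the 4OHT control and 37.5, 53.0 and 57.7 CPM in the EtOH control, with no overlap. With the replicate block 10 members rose and 2 fell in the 4OHT control, where 17.0% of all genes rose and 15.8% fell (32.8% in all), and without EtOH control replicate 3 the test called 2 members, both higher.

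Most members differed between replicate numbers. In a fit with group and replicate number, chosen after the pattern was seen, the replicate terms were called in 37 of the 44 members, 84.1%, and in 19.6% of all genes tested. Replicate 1 was the lowest library in all 3 groups in 25 members, 56.8%, and in 10.0% of all genes, and replicate 3 the highest in all 3 groups in 22 members, 50%, and in 10.6% of all genes. The median log2 difference of replicate 3 over replicate 1 was 0.21 over the members and -0.00 over all genes. Among 44 genes of DNA synthesis in S phase the replicate terms were called in 16, 36.4%, with a median difference of 0.06. Replicate 1 was the lowest library in all 3 groups in 20 of those 44, 45.5%, and replicate 3 the highest in all 3 groups in 4, 9.09%. The difference between the histone genes and the S phase genes was not tested. What the numbers stand for is not given in the labels.

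Hist1h1a showed the pattern, with 451, 492 and 531 CPM in KO replicates 1, 2 and 3, 499, 503 and 559 CPM in the 4OHT control and 449, 516 and 530 CPM in the EtOH control. Replicate 1 was the lowest and replicate 3 the highest in each group, and the difference of replicate 3 over replicate 1 was 0.21 on the log2 scale (adjusted p = 0.00016, edgeR). The differences were widest in Hist1h2ba at 0.58, Hist1h2aa at 0.53 and Hist3h2ba at 0.47, and lowest in Hist1h2bp at 0.04 and Hist1h2ad at 0.04, neither called (adjusted p = 0.41 and 0.91). The group means of Hist1h1a were 491 ± 39.8 CPM in KO, 520 ± 33.4 CPM in the 4OHT control and 498 ± 42.9 CPM in the EtOH control (SD, n = 3 each).

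**Figure D4:**
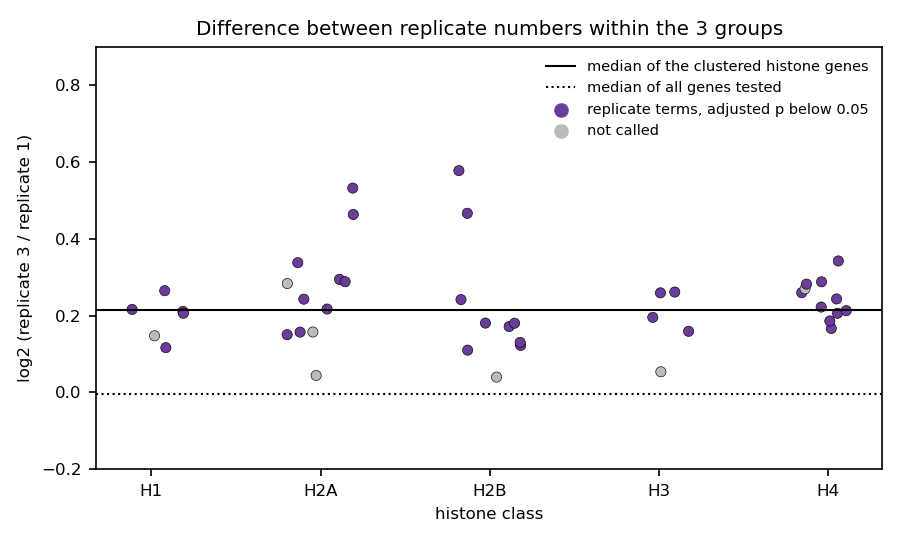
Log2 difference of replicate 3 over replicate 1 (y axis), fitted over the 3 groups, of each of the 44 genes by histone class (x axis); filled color marks the 37 genes with called replicate terms. The median of the genes, 0.21, is drawn as a solid line and that of all genes tested, -0.00, as a dotted line.

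The genes that make, process and degrade histone mRNAs were read from lists chosen with results of these data known. SLBP, which binds the stem-loop, fell: Slbp had 65.6, 72.4 and 73.2 CPM in KO, 77.9, 85.0 and 84.6 CPM in the 4OHT control and 84.1, 89.4 and 89.9 CPM in the EtOH control. Every KO library was below every control library. The log2 fold change was -0.32 (SE 0.06, adjusted p = 0.00099) against the EtOH control and -0.23 (SE 0.06, adjusted p = 0.0063) against the 4OHT control. Of 24 tested genes of histone mRNA processing, 1 rose and 8 fell against the EtOH control, with a median of -0.09, and 2 rose and 11 fell against the 4OHT control, with a median of -0.07 (37.5% and 54.2% called, against 27.2% and 38.9% of all genes). Snrpd3, a core Sm protein, fell by 0.63 and 0.64 on the log2 scale against the EtOH and the 4OHT control (adjusted p = 4.01e-06 and 1.52e-06), and Cstf2t, a cleavage stimulation factor subunit, fell by 0.55 and 0.49 (adjusted p = 9.81e-06 and 1.66e-05). Sympk, the scaffold of the cleavage complex, fell by 0.25 against the EtOH control (adjusted p = 0.0019) and was at -0.08 against the 4OHT control (adjusted p = 0.26).

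Of 18 tested genes of histone mRNA decay, 1 rose and 2 fell against the EtOH control, with a median of -0.03, and 1 rose and 6 fell against the 4OHT control, with a median of -0.12. The shares called, 16.7% and 38.9%, were no higher than the 27.2% and 38.9% of all genes. Lsm6, of the Lsm ring that binds oligouridylated ends, rose against the EtOH control (0.27, adjusted p = 0.012) and fell against the 4OHT control (-0.20, adjusted p = 0.043). The rise was lost without EtOH control replicate 3 (adjusted p = 0.051) or KO replicate 2 (0.066), and the fall in 5 of 16 alternatives: library totals (0.23), the 2 groups alone (0.053), and without KO replicate 1 (0.094), KO replicate 3 (0.15) or 4OHT control replicate 2 (0.19). Exosc10, an exosome nuclease, fell against the EtOH control (-0.14, adjusted p = 0.045) and rose against the 4OHT control (0.13, adjusted p = 0.041). Neither call of Exosc10 was stable. The fall was lost in 8 of 16 alternatives, among them library totals (adjusted p = 0.33), no filter (0.11) and leaving out EtOH control replicates 1 (0.064), 2 (0.098) or 3 (0.12) or KO replicates 1 (0.085) or 3 (0.11). The rise was lost in 11 of 16, among them RLE scaling (0.064), DESeq2 (0.079), no filter (0.14) and leaving out EtOH control replicates 1 (0.054), 2 (0.056) or 3 (0.053), KO replicates 1 (0.094) or 2 (0.14) or 4OHT control replicates 1 (0.10) or 3 (0.14). Xrn2, a nuclear exonuclease, fell by 0.15 (adjusted p = 0.032) and 0.29 (adjusted p = 0.00025) against the EtOH and the 4OHT control. The Xrn2 call against the EtOH control was lost in 6 of 16 alternatives: library totals (0.23), no filter (0.067), and without EtOH control replicates 1 (0.086), 2 (0.051) or 3 (0.080) or KO replicate 1 (0.094).

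Npat, which activates the clustered histone genes, had 99.3, 93.7 and 99.8 CPM in KO, 102, 97.5 and 99.3 CPM in the 4OHT control and 96.2, 96.7 and 92.4 CPM in the EtOH control. The groups overlapped in both contrasts, with a log2 fold change of 0.04 (SE 0.05, adjusted p = 0.63) against the EtOH control and -0.03 (SE 0.05, adjusted p = 0.66) against the 4OHT control, which became 0.05 with library totals. The kinase Cdk2 and its cyclin Ccne1, which act on NPAT, fell by 0.72 and 0.56 on the log2 scale against the EtOH control (adjusted p = 5.43e-08 and 0.00082) and by 0.50 and 0.54 against the 4OHT control (adjusted p = 2.82e-06 and 0.00053). Nelfb and Nelfcd, of the NELF complex that pauses RNA polymerase II, fell by 0.85 and 0.34 against the EtOH control and by 0.96 and 0.47 against the 4OHT control. In all, none rose and 6 fell of 19 transcription genes against the EtOH control, and 1 rose and 8 fell against the 4OHT control (31.6% and 47.4% called, against 27.2% and 38.9% of all genes).

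Among 27 histone chaperones, 1 rose and 10 fell against the EtOH control, with a median of -0.11, and none rose and 15 fell against the 4OHT control, with a median of -0.17 (40.7% and 55.6% called, against 27.2% and 38.9% of all genes). Hira, which deposits the replication-independent H3.3, had 55.8, 62.4 and 56.9 CPM in KO, 128, 130 and 132 CPM in the 4OHT control and 109, 108 and 117 CPM in the EtOH control, with no overlap. Hira fell by 0.93 on the log2 scale (adjusted p = 5.1e-09) against the EtOH control and by 1.15 (adjusted p = 2.35e-10) against the 4OHT control. Nasp, a carrier of H3 and H4, fell by 0.37 and 0.17, Daxx, also an H3.3 chaperone, by 0.31 and 0.41, and Chaf1b, a subunit of the replication-coupled assembly factor CAF-1, by 0.37 and 0.34, each against the EtOH and then the 4OHT control. The Nasp call against the 4OHT control was lost with library totals (adjusted p = 0.20) and without KO replicate 1 (0.17) or 4OHT control replicates 2 (0.13) or 3 (0.11). The genes listed as replication-independent histones went both ways. Against the EtOH and then the 4OHT control, H2afz fell by 0.41 and 0.43 and H2afx by 0.21 and 0.38, while H2afj rose by 0.41 and 0.81. Cenpa, the centromeric H3, rose by 0.22 against the EtOH control and was at 0.13 against the 4OHT control (edgeR adjusted p = 0.059, and 0.0086 with the block). Against the EtOH control the H2afx call was lost with library totals (adjusted p = 0.083) and without EtOH control replicate 3 (0.099) or KO replicate 1 (0.091), and the Cenpa call without EtOH control replicate 2 (0.055). Of 10 tested, 2 rose and 2 fell against the EtOH control and 1 rose and 4 fell against the 4OHT control (40% and 50% called, against 27.2% and 38.9% of all genes).

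With library totals in place of TMM, the counts were 2 risen and 6 fallen against the EtOH control and 4 and 5 against the 4OHT control for processing, 3 and 0 and then 2 and 3 for decay, 0 and 5 and then 1 and 5 for transcription, 2 and 5 and then 4 and 10 for chaperones, and 3 and 1 and then 2 and 4 for the replication-independent histones. Of all 16224 genes, 3038 rose and 1527 fell against the EtOH control under that scaling, and 4215 rose and 2328 fell against the 4OHT control. The median of the decay genes against the EtOH control became 0.04 with library totals, and that of the processing genes against the 4OHT control 0.02. With the replicate block the counts against the EtOH control were 2 risen and 11 fallen for processing and 2 and 3 for decay. They were 0 and 8 for transcription, 2 and 14 for chaperones and 3 and 3 for the replication-independent histones. Against the 4OHT control they were 4 and 11, 2 and 9, 1 and 10, 3 and 17, and 2 and 5 in the same order. Of all genes, 20.4% rose and 22.3% fell against the EtOH control with the block, and 25.5% and 25.9% against the 4OHT control.

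Genes of DNA synthesis in S phase were read beside the histone genes. Against the EtOH control, none rose and 32 fell of 44, at a median of -0.22, beside 2 calls of 44 and a median of -0.02 in the histone genes and 27.2% of all genes called. Against the 4OHT control 1 rose and 19 fell of 44, at a median of -0.13, beside 7 calls of 44 and a median of -0.05 in the histone genes. The shares called in that contrast were 45.5% of the S phase genes, 15.9% of the histone genes and 38.9% of all genes. Tk1, thymidine kinase, had 44.0, 51.3 and 44.6 CPM in KO, 63.5, 70.1 and 62.3 CPM in the 4OHT control and 69.5, 71.3 and 72.1 CPM in the EtOH control. Every KO library of Tk1 was below every control library. Tk1 fell by 0.61 on the log2 scale against the EtOH control (adjusted p = 8.61e-06) and by 0.49 against the 4OHT control (adjusted p = 4.23e-05). The polymerase genes Pold1, Pola1 and Pola2 fell by 0.49, 0.36 and 0.42 against the EtOH control and by 0.26, 0.43 and 0.38 against the 4OHT control. With library totals the S phase counts were 23 fallen against the EtOH control and 13 against the 4OHT control, and those of the histone genes 5 risen and 1 fallen, and 3 risen and 3 fallen. Of all 16224 genes, 3038 rose and 1527 fell against the EtOH control under that scaling. Against the 4OHT control 4215 of them rose and 2328 fell. With the replicate block none of the S phase genes rose and 35 fell against the EtOH control, beside 8 and 7 histone genes. Against the 4OHT control with the block, 1 rose and 24 fell, beside 5 risen and 17 fallen histone genes. Of all genes, 42.8% and 51.4% were called with the block. The replicate terms were called in 36.4% of the S phase genes and 84.1% of the histone genes, so counts without the block are not on equal terms. The difference between the 2 lists itself was not tested.

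**Figure D5:**
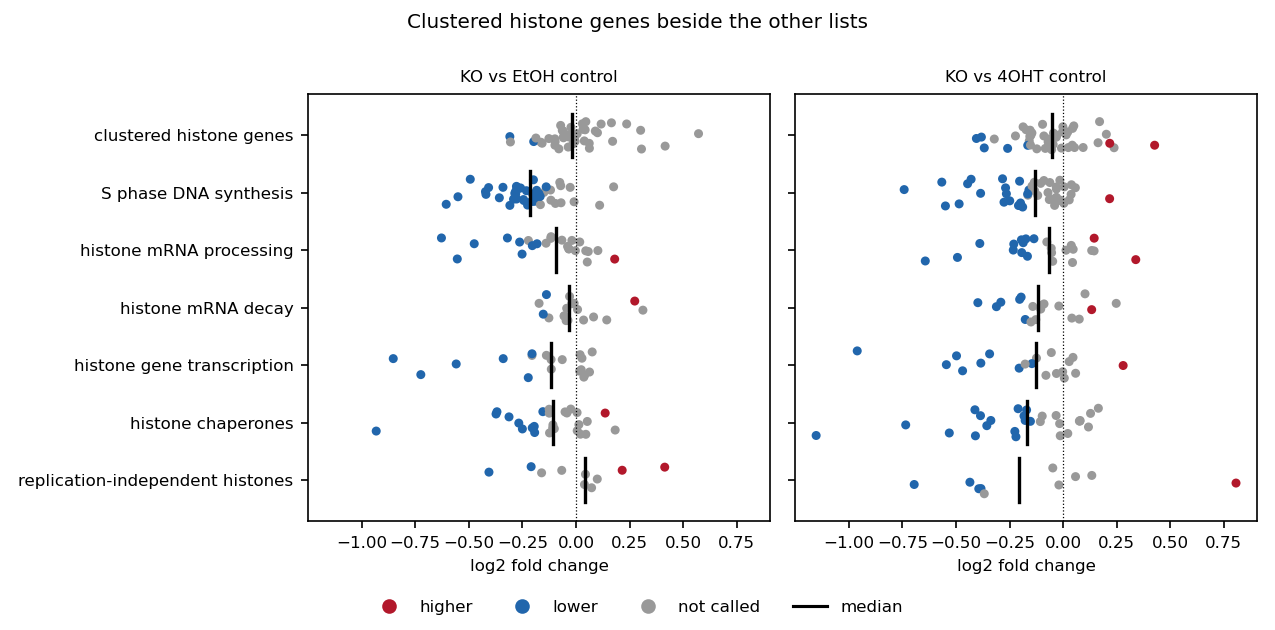
Log2 fold change (x axis) of each tested gene in the clustered histone genes and 6 further lists (y axis) for KO against the EtOH control and KO against the 4OHT control; color marks called genes and the black bar the median. The median of the histone genes is -0.02 and -0.05, and that of the S phase genes -0.22 and -0.13.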

How the data were processed

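Per the labels, rRNA-depleted total RNA of 9 libraries was made with a directional kit. The deposited values are counts per gene; the submitters' processing notes name cutadapt, STAR, HTSeq, edgeR and the build mm9, and Bowtie 1.1.2, MACS2 and DiffBind for the series. Each file had 37310 gene rows, 32620 of them matched to a symbol. The closing rows for reads assigned to no gene (26.4% to 33.8%), ambiguous reads (0.780% to 0.908%) and other unassigned reads were left out of totals and tests. Symbols, transcripts and proteins came from GENCODE (GRCm38), used for names and sequence only, and 14 clustered histone symbols of that annotation had no row and were not analysed here.

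Counts were fitted with edgeR 4.0.16 (TMM, filterByExpr, robust quasi-likelihood, 1 mean per group over all 9 libraries, 6 residual degrees of freedom, Benjamini-Hochberg over 16224 genes, threshold 0.05) in R 4.3.3, tested on simulated data. The members and gene lists were chosen with earlier results of these data known. Named genes were, in each class, the 3 members with the highest mean CPM; up to 4 largest called rises and falls of KO against each control and 2 each way between controls; the 3 nearest to the level limit on each side; the 4 smallest p of each list; and Slbp, Npat and Zbtb11. Others were chosen after their values were seen, among them Hist3h2ba, Hist1h2aa, Hist1h2bp and the cluster grouping. The replicate numbers of the labels paired the libraries. Over genes, deviations from group means correlated at 0.11 to 0.31 in the 9 same-numbered pairs and at -0.23 to -0.02 in the 18 others. Deviations of a group cancel out for each gene, so the negative values follow from the positive ones and are no separate evidence. The replicate block is therefore given beside the counts of members and lists and beside named values whose call it changes. Alternatives were RLE scaling, library totals, DESeq2 1.42.0, no filter, a mean CPM of at least 1, the block, the 2 groups alone, leaving out each library, other member limits and copies of 1 protein summed. The number of counts per library limits precision, and no interval here covers more than the spread of the 3 libraries of a group. Figures used matplotlib 3.10.9.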

Additional observations from a re-analysis of the deposited data

How the results depend on the processing

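The replicate block moved the calls most: against the EtOH control it called 15 members (8 higher, 7 lower), against the 4OHT control 22 (5 higher, 17 lower), and between the controls, for the 4OHT control over the EtOH control, 12 (10 higher, 2 lower). Against the EtOH control, library totals called 6 (5 higher, 1 lower), DESeq2 4 (1 higher), no filter 9 (5 higher, 4 lower), the filter at a mean CPM of 1 called 1 (1 lower), the 2 groups alone and no CPM minimum for members each had 1 higher, and copies of 1 protein summed gave 1 (1 lower). Leaving out a library gave 1 to 6 calls there, 0 to 5 higher and 1 to 5 lower. Against the 4OHT control, library totals had 3 lower, no filter called 16 (4 higher, 12 lower), copies summed gave 3 (1 higher, 2 lower), and leaving out a library gave 5 to 9 calls, 1 to 2 higher and 3 to 7 lower. For the 4OHT control over the EtOH control, DESeq2 called 1 (1 higher), no filter 4 (4 higher), leaving out a library 0 to 2, and the summed level within replicate number 1 was 0.17 on the log2 scale against 0.04 over all libraries. The cause of these differences was not tested. Of all genes, the block called 42.8% against the EtOH control, 51.4% against the 4OHT control and 32.8% between the controls. Library totals called 3038 of all 16224 genes higher and 1527 lower against the EtOH control, and 4215 and 2328 against the 4OHT control. For the other settings the share over all genes is not given here, so their member counts cannot be set against it.

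Over the 109 comparisons of named genes and 16 settings each, 1744 values in all, 1557 kept their direction and side of the threshold, 65 kept the direction and lost the call, 60 kept it and gained one, and 62 changed sign. Each sign change was in a gene not called, and the values are on the log2 scale. With library totals, KO against the EtOH control became 0.050 for Hist1h1a, 0.067 for Hist1h1d, 0.065 for Hist1h1c, 0.057 for Hist1h2ab, 0.037 for Hist1h2bg, 0.012 for Hist1h2bc, 0.011 for Hist2h3b and 0.032 for Hist1h4h. KO against the 4OHT control became 0.053 for Hist1h2ab, 0.036 for Hist1h2bb, 0.079 for Hist1h2bg, 0.050 for Hist1h2bc, 0.0068 for Sympk and 0.052 for Npat under that setting. The 4OHT control over the EtOH control became -0.0058 for Hist1h2ak under that setting. With the filter at a mean CPM of 1, KO against the EtOH control became 0.0027 for Hist1h1d and 0.0023 for Hist1h1c. KO against the 4OHT control became 0.0054 for Hist1h2bg under that setting. With a library left out, KO against the EtOH control ran from -0.094 to 0.030 for Hist1h1a, -0.080 to 0.047 for Hist1h1d, -0.086 to 0.079 for Hist1h1c, -0.085 to 0.043 for Hist1h2ab, -0.12 to 0.034 for Hist1h2bg, -0.15 to 0.0086 for Hist1h2bc, -0.15 to 0.047 for Hist2h3b, -0.047 to 0.16 for Hist1h4a and -0.17 to 0.051 for Hist1h4h. KO against the 4OHT control ran from -0.012 to 0.099 for Hist1h1c, -0.070 to 0.014 for Hist1h2ab, -0.11 to 0.0013 for Hist1h2bb, -0.058 to 0.069 for Hist1h2bg and -0.092 to 0.042 for Hist1h2bc. The 4OHT control over the EtOH control ran from -0.0096 to 0.11 for Hist1h1a, -0.13 to 0.036 for Hist1h1c, -0.056 to 0.081 for Hist1h2ak, -0.054 to 0.074 for Hist1h2ab, -0.013 to 0.11 for Hist1h2af, -0.11 to 0.012 for Hist1h2bg, -0.12 to 0.034 for Hist1h2bc, -0.11 to 0.017 for Hist1h3e, -0.010 to 0.087 for Hist1h3c, -0.0063 to 0.11 for Hist1h4d, -0.13 to 0.00043 for Hist1h2be and -0.017 to 0.17 for Hist2h4.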
